A study of Gossypium hirsutum with 4 samples.

Results

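Upland cotton, Gossypium hirsutum, is an allotetraploid with an A and a D subgenome, and its draft genome holds scaffolds that are tied to a chromosome by name without being placed in its sequence. The peaks described here lie on scaffolds named after an A chromosome, such as scaffold2434_A09, and are called peaks on A-anchored scaffolds. They were chosen by the name alone, as scaffold, a number, and a suffix from _A01 to _A13. They number 2792 of 18015 peaks in the list labelled D53 and 2861 of 19400 in the list labelled B, or 15.5% and 14.7% of each list. Together 5653 of 37415 peaks on 1583 scaffolds met the rule. The names follow a fixed order, with scaffold numbers from 27 to 182 for A01 and from 3411 to 3705 for A13, and no number range of one chromosome name runs into that of the next. The lists hold no other value against which the anchoring could be checked.

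The 4 samples were chromatin immunoprecipitation sequencing (ChIP-seq) libraries from leaves, namely an immunoprecipitate (IP) labelled D53, an IP labelled B, the input chromatin of D53 and the input chromatin of B. Each group held 1 library, and FLAG, a short epitope tag, was given as the antibody for all of them. The labels give no genotype, transgene, promoter or plant age, and they do not say what B stands for. Every difference between the lists is therefore a difference between single libraries, without replicates and without a test.

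D53 takes its name from a rice protein that represses strigolactone signalling. Strigolactones are plant hormones that restrain shoot branching, and their perception in rice leads to the ubiquitination and degradation of D53, which otherwise acts with corepressors on target genes. A ChIP-seq peak marks a stretch where the IP was called as enriched over input. No peak could be tied to a gene here, because none of the 1583 scaffold names occurs in the gene table at hand, so the peaks are described by position, width and score. The score is the authors' own value per peak, a whole number that no source used here defines, and read depth is unknown.

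Peaks were thinly spread over most A-anchored scaffolds. Of the 1583 scaffolds, 894 carried peaks of both lists, 360 carried D53 peaks without B peaks and 329 carried B peaks without D53 peaks. A scaffold with any D53 peak held a median of 1, and 707 of 1254 such scaffolds held exactly 1. For B the median was also 1, and 691 of 1223 scaffolds held exactly 1. Only 26 scaffolds had 10 or more D53 peaks and 33 had 10 or more B peaks. The 100 scaffolds richest in D53 peaks held 33.5% of the D53 peaks and 31.9% of the B peaks.

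A pair of scaffolds stood apart in number. Scaffold2434_A09 carried 70 D53 and 91 B peaks, and scaffold1038_A05 carried 69 D53 and 76 B peaks. No other A-anchored scaffold reached 30 in either list. Next came scaffold3229_A12 with 25 D53 and 20 B peaks and scaffold3570_A13 with 24 D53 and 25 B peaks. The other 6 of the 10 scaffolds with most D53 peaks, scaffold1518_A06, scaffold2012_A08, scaffold967_A04, scaffold1832_A07, scaffold3564_A13 and scaffold3612_A13, held 13 to 16 D53 peaks each. The last 2 of them shared their count of 13 with scaffold3623_A13 and scaffold840_A04, which had 18 and 11 B peaks and were placed after them by name. These 10 scaffolds together held 274 D53 and 295 B peaks, or 9.81% and 10.3% of the A-anchored peaks.

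By chromosome name, D53 peaks ranged from 125 on A01 scaffolds to 292 on A11 scaffolds, with a median of 208. B peaks ranged from 132 on A01 scaffolds to 329 on A11 scaffolds, with a median of 210. The D53 count exceeded the B count for 5 of 13 names, and the B count was the greater for the other 8. The number of scaffolds with a peak of either list also varied, from 75 for A01 to 157 for A06. These counts do not follow the chromosomes themselves, since chromosome A01 held the most D53 peaks of any A chromosome, 623, and chromosome A04 the fewest, 362, while A04 scaffolds held 274.

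**Figure D1:**
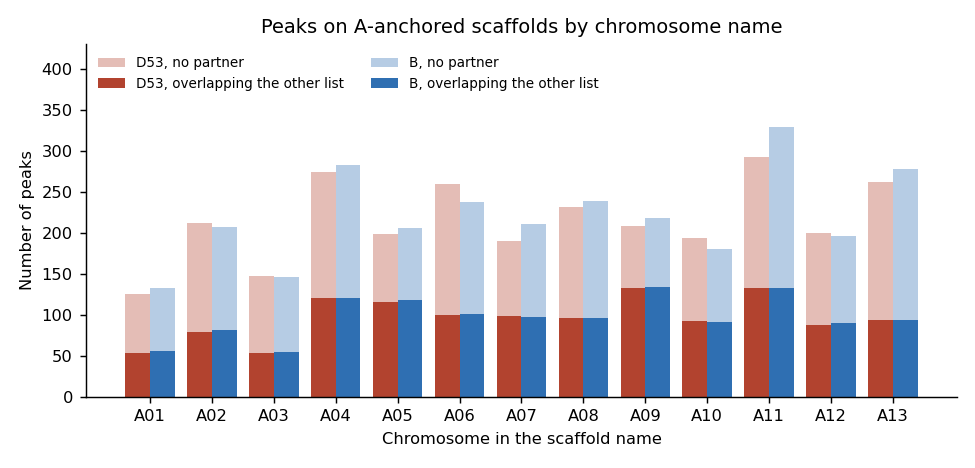
Number of peaks on A-anchored scaffolds (vertical axis) for each chromosome in the scaffold name, with D53 bars left of B bars; the dark part of a bar counts peaks that overlap the other list and the pale part those that do not. A01 scaffolds are lowest in both lists, with 125 D53 and 132 B peaks, and A11 scaffolds highest, with 292 and 329.

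The length of the scaffolds is not known from the lists, so the highest peak end on each was taken as its span, a lower bound. Spans had a median of 28.1 kb (quartiles 6.08 and 118 kb) and reached 3554 kb on scaffold3570_A13. On the 87 scaffolds with a span of 500 kb or more, D53 peaks numbered 8.21 and B peaks 8.47 per Mb of span. These include scaffold2434_A09, with 70 D53 and 91 B peaks on a span of 521 kb. The 13 A chromosomes held 5.58 D53 and 5.73 B peaks per Mb. Scaffolds without any peak do not appear in the lists and the spans end at the last peak, both of which raise the scaffold values, and the difference was not tested.

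Peaks were narrow. D53 peaks on A-anchored scaffolds had a median width of 272 bp (quartiles 228 and 387 bp, range 199 to 2576 bp). B peaks had a median of 253 bp (quartiles 212 and 348 bp, range 186 to 2589 bp). The smallest width, 199 bp for D53 and 186 bp for B, was the same on the A chromosomes, where the medians were 267 and 249 bp.

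Scores were mostly low with a long upper tail. The median was 9 for D53 peaks (quartiles 5 and 17, range 3 to 449) and 14 for B peaks (quartiles 8 and 29, range 4 to 633). A score of at least 50 was reached by 155 D53 and 389 B peaks. Scores of the lists cannot be set against each other as binding levels, since their scale and the depth behind them are unknown. Within the D53 list, the median on A-anchored scaffolds was 9, against 7 on the A chromosomes, 8 on scaffolds named after a D chromosome and 10 on unplaced scaffolds. Within the B list, it was 14 on A-anchored scaffolds, against 11 on the A chromosomes, 13 on D-anchored scaffolds and 15 on unplaced scaffolds. Without scaffold2434_A09 and scaffold1038_A05 the A-anchored medians were 8 for D53 and 13 for B, equal to those on all D-anchored scaffolds. No scaffold was left out on the D-anchored side. It includes 1 scaffold with 54 D53 peaks (median score 60) and 1 with 62 B peaks (median score 208). For 12 of the 13 names the D53 median was higher on the scaffolds than on the chromosome of that name, with 1 tie, and for B it was higher for 13 of 13. With scaffold2434_A09 and scaffold1038_A05 left out, these numbers were 11 of 13 with 2 ties for D53 and 12 of 13 for B. The name that turned was A05, where the B median without scaffold1038_A05 was 10 on the scaffolds and 11 on the chromosome. These differences were not tested.

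The highest D53 scores lay on few scaffolds. The highest A-anchored D53 peak, at 168736 to 169710 on scaffold3564_A13, scored 449 and its B partner 434. Next was 6060 to 7208 on scaffold767_A04, with a D53 score of 365 against a B score of 322. Scaffold894_A04 held 4 of the 10 highest, with D53 scores of 347, 299, 220 and 220 against B scores of 402, 282, 189 and 182. Scaffold2309_A09 held 2, with D53 scores of 263 and 234 against B scores of 223 and 177. The last 2 were on scaffold3366_A12, at 226 and 221 for D53 against 213 and 176 for B. In 9 of these 10 the D53 score was the higher one, the exception being the peak of 347 on scaffold894_A04. Choosing peaks by their D53 score favours this. Over all 1279 A-anchored pairs the D53 score was the higher one in 68.

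The highest B scores lay elsewhere. Scaffold2434_A09 held 5 of the 10 highest B peaks and scaffold1038_A05 held 3. The highest of all had a D53 score of 151 and a B score of 633, with the D53 peak at 349 to 2607 and the B peak at 313 to 2614 on scaffold2434_A09. On scaffold1038_A05 the strongest, at 257263 to 258182 for D53, scored 133 in D53 and 570 in B. The peak at 22484 to 22954 on scaffold1629_A07 scored 119 in D53 and 488 in B. Only the scaffold3564_A13 peak was among the 10 highest of both lists. Choosing peaks by their B score favours pairs in which the B score is the higher one.

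The best peak also differed between chromosome names. The highest D53 score on A03 scaffolds was 56, at 27449 to 27888 on scaffold662_A03, and on A08 scaffolds it was 58, at 67262 to 67566 on scaffold2020_A08. For A13 and A04 it was 449 and 365. Among the 13 highest D53 peaks by name, 11 overlapped a B peak. Those without a partner were on A06 and A07 scaffolds, and on A07 the peak at 181097 to 181336 on scaffold1815_A07, which had one, reached the same D53 score of 131. The highest B score by name ran from 92 on A08 scaffolds, at 872 to 1329 on scaffold2087_A08, to 633 on A09 scaffolds, and each of these 13 peaks overlapped a D53 peak. Choosing the highest peaks favours overlap, since 95.3% of D53 and 88.6% of B peaks scored 50 or more overlapped over the whole lists.

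A shared stretch of 1 bp or more made peaks of both lists an overlapping pair. Of the D53 peaks on A-anchored scaffolds, 1253 of 2792 had a B partner in this sense, which is 44.9% (95% Wilson interval 43.0 to 46.7), close to the 44% over the whole D53 list. Of the B peaks, 1265 of 2861 overlapped a D53 peak, or 44.2% (42.4 to 46.0), against 41.3% over the whole B list. On the A chromosomes the shares were 38.4% for D53 (37.3 to 39.6) and 38.0% for B (36.8 to 39.1). On D-anchored scaffolds they were 47.8% (43.6 to 52.1) and 47.2% (43.0 to 51.4). On unplaced scaffolds they were 55.1% (53.8 to 56.5) and 46.6% (45.4 to 47.8). The intervals cover counting error of peaks only, neighbouring peaks are not independent, and the differences were not tested. For both lists, the share was higher on the scaffolds than on the chromosome for 12 of 13 names. Without scaffold2434_A09 and scaffold1038_A05 the A-anchored shares were 42.1% for D53 (40.2 to 44.0) and 41.8% for B (40.0 to 43.7). In each list, 11 of 13 names then had the higher share on the scaffolds. No scaffold was left out of the D-anchored shares. They include 1 scaffold on which 54 of 54 D53 peaks overlapped and 1 on which 55 of 62 B peaks did.

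Overlap rose steeply with score. Among A-anchored D53 peaks scored under 5, 21 of 523 had a B partner, a share of 4.02% (95% Wilson interval 2.64 to 6.06). The share was 65.9% from 10 to 19 (62.2 to 69.4), 92.3% from 20 to 49 (89.4 to 94.4) and 92.9% from 50 up (87.7 to 96.0). Among B peaks, 0 of 67 scored under 5 overlapped a D53 peak (upper Wilson bound 5.42%), and the share reached 90.2% from 50 up (86.9 to 92.8). Peaks of like score overlapped about as often on the A chromosomes. There D53 peaks gave 62.9% from 10 to 19 (60.2 to 65.6) and 92.0% from 20 to 49 (89.8 to 93.8), and the intervals of scaffolds and chromosomes overlapped in each of the 5 score bands for D53. For B they overlapped in 4 of 5. The exception was the band from 5 to 9, with 9.71% on the scaffolds (7.91 to 11.9) and 13.9% on the A chromosomes (12.6 to 15.2). The scaffolds thus had both the higher overall share and the higher scores, and the part of the scores in that share was not tested.

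**Figure D2:**
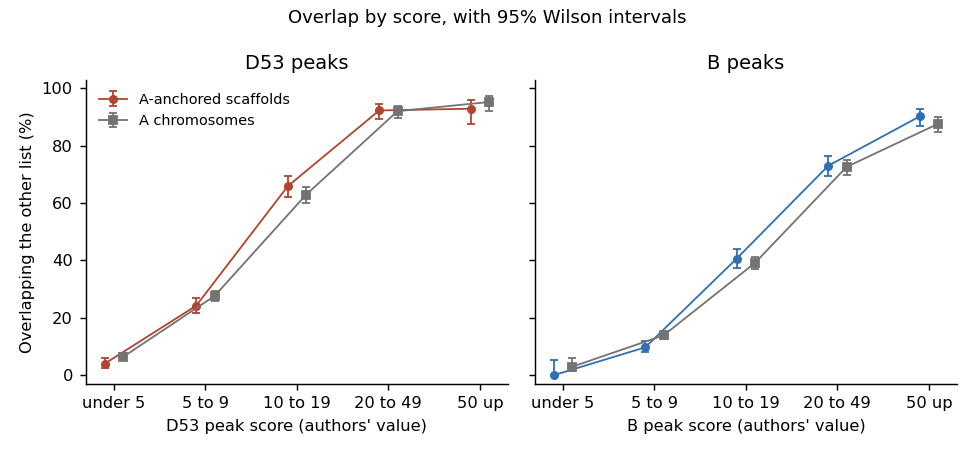
Percentage of peaks that overlap the other list (vertical axis) by the authors' score (horizontal axis), for D53 peaks on the left and B peaks on the right; circles are A-anchored scaffolds, squares A chromosomes, bars 95% Wilson intervals. The share climbs from 4.02% to 92.9% for D53 peaks on A-anchored scaffolds, and for D53 the intervals of circles and squares overlap in each of the 5 bands.

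Wider peaks overlapped more often too. D53 peaks of 600 bp or more overlapped in 86.0% of cases (95% Wilson interval 81.4 to 89.6) and had a median score of 23.5. Those under 250 bp overlapped in 26.3% (23.7 to 29.0) and had a median score of 6. For B, the shares were 90.8% (86.5 to 93.8) at 600 bp or more and 26.1% (23.8 to 28.4) under 250 bp. The whole lists showed much the same, with 82.8% and 26.9% for D53 and 85.1% and 25.2% for B at these widths. On scaffolds with exactly 1 D53 peak, 37.3% overlapped a B peak (33.9 to 41.0). There was no steady rise with the number of peaks on a scaffold, since the D53 share was 44.8% (42.1 to 47.6) with 2 to 5 D53 peaks, 42.2% (38.6 to 45.8) with 6 up to 30 and 97.8% (93.8 to 99.3) on scaffold2434_A09 and scaffold1038_A05. For B it was 38.8%, 43.3%, 42.3% and 82.6% in the same order. Where a scaffold held exactly 1 peak of each list, 184 of 286 such pairs of peaks overlapped, or 64.3% (58.6 to 69.7). The lengths of these scaffolds are not known, and the part of scaffold length in this share was not tested. In all, 669 scaffolds held at least 1 overlapping pair, and 585 scaffolds with D53 peaks held none.

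The 1253 D53 and 1265 B peaks formed 1279 overlapping pairs, of which 1200 were one-to-one, with no further partner for either peak. Boundaries were close, with a median distance of 37 bp between the starts and 36 bp between the ends. The shorter peak lay fully inside the longer in 604 pairs, or 47.2%. Scores within pairs ranked alike, with a Spearman rho of 0.91 over the 1279 pairs, a description of peaks that share libraries and were kept because both lists had called them. The D53 score was the higher one in 68 pairs and equal in 40.

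Taken as log2 of D53 over B, the score ratio had a median of -0.68 over these pairs (quartiles -1.05 and -0.39), and -0.68 over all 8127 pairs of the series. Calls of low and high pairs are made against that common median. The bounds of -1.5 and -0.5 used further on are fixed values that do not lie evenly about it, with -0.5 the nearer. A ratio at least 1 log2 unit below the common median was found in 140 pairs, or 10.9% (95% Wilson interval 9.35 to 12.8), against 11.9% of all pairs. A ratio at least 1 unit above it was found in 15 pairs, or 1.17%, against 2.77% of all pairs. Low pairs made up 24.4% on D-anchored scaffolds, 14.7% on unplaced scaffolds, 7.25% on A chromosomes and 13.5% on D chromosomes. These differences were not tested.

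Low ratios were concentrated. Scaffold2434_A09 and scaffold1038_A05 carried 109 of the 140 low pairs, and 120 lay on scaffolds named A05 or A09. Without that pair of scaffolds, 31 of 1140 pairs were low, or 2.72% (1.92 to 3.83), and the median ratio was -0.63. Among the 15 pairs with a high ratio none was on either scaffold.

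**Figure D3:**
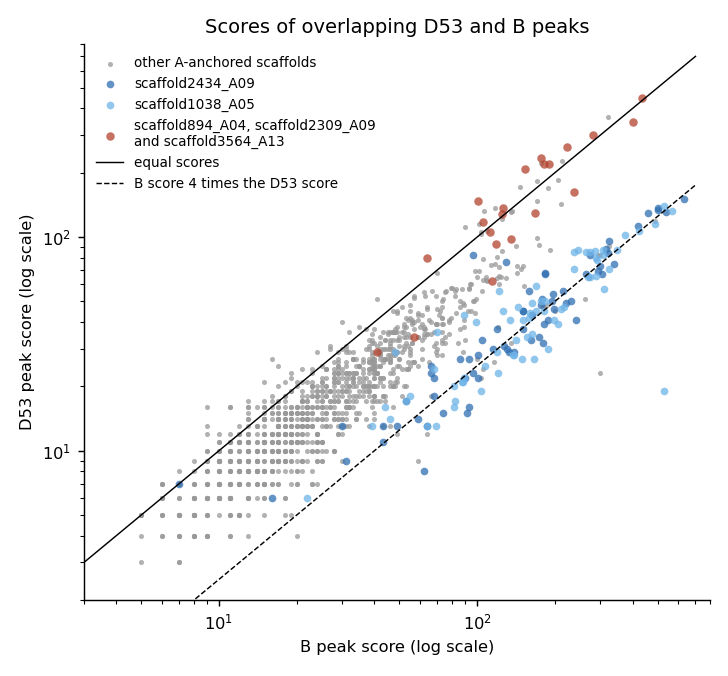
D53 score (vertical, log scale) against B score (horizontal, log scale) for the 1279 overlapping pairs on A-anchored scaffolds, 1 point a pair; the solid line marks equal scores and the dashed line a B score 4 times the D53 score. Most pairs of scaffold2434_A09 and scaffold1038_A05 (blue) lie near the dashed line, and pairs of scaffold894_A04, scaffold2309_A09 and scaffold3564_A13 (red) lie nearer to equal scores.

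On scaffold2434_A09 the D53 scores had a median of 35.5 (range 4 to 151) and the B scores a median of 104 (range 5 to 633). Of its D53 peaks, 68 of 70 overlapped a B peak, and 69 of 91 B peaks overlapped a D53 peak. The median log2 ratio was -1.94 (SD 0.46 over 69 pairs). Peaks began near the start of the scaffold and ran to its last peak end at 520694. A stretch of 68.5 kb between D53 peak starts at 25582 and 94044 held no other D53 peak start. The 14 D53 peaks before it had a median score of 47.5 and the 56 after it a median of 33.5.

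Scaffold1038_A05 gave D53 scores with a median of 41 (range 6 to 140) and B scores with a median of 149.5 (range 13 to 570). Here 68 of 69 D53 peaks and 69 of 76 B peaks overlapped. The median log2 ratio was -1.95 (SD 0.51 over 70 pairs). Except for 1 peak of each list at its start, all peaks started at 143204 or later, after a step of 141 kb. The 68 D53 peaks there spread over 237 kb. On both scaffolds most neighbours were close, since 53.6% of the D53 steps on scaffold2434_A09 and 64.7% of those on scaffold1038_A05 were under 2500 bp. On the remaining A-anchored scaffolds 28.0% of D53 steps were as short.

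**Figure D4:**
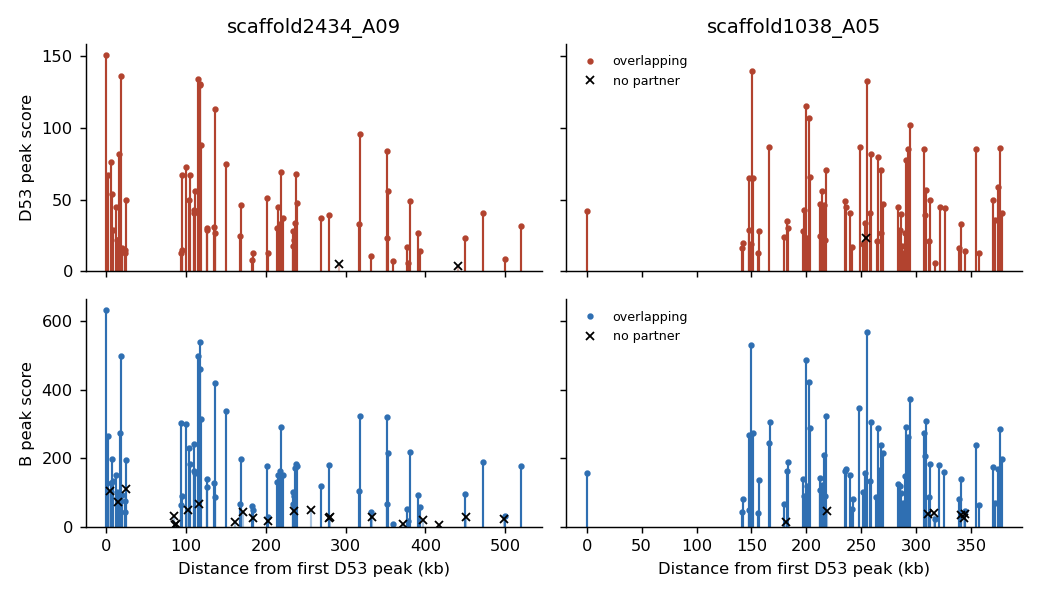
Score of each peak (vertical axes) against its distance from the first D53 peak of the scaffold in kb (horizontal axes), for D53 above and B below, on scaffold2434_A09 (left) and scaffold1038_A05 (right); crosses mark peaks without a partner. High D53 and high B peaks stand at the same places, with most B peaks without a partner among the low ones and gaps of 68.5 kb and 141 kb without D53 peak starts.

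A few smaller scaffolds shared the low ratio. On scaffold2433_A09, 9 of 9 pairs were low, with a median ratio of -2.08, D53 scores with a median of 48 and B scores with a median of 178.5. Its 10 B peaks all lay between 98473 and 113038. Scaffold1629_A07 and scaffold3018_A11 had 5 pairs each, with median ratios of -2.04 and -1.89. Of 34 scaffolds with at least 5 pairs, 5 had a median below -1.5, 18 a median from -1.5 to -0.5 and 11 one above -0.5. The scaffolds of the first kind are the 5 just named.

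At the other end stood scaffolds with ratios above the common median of -0.68, where the printed D53 and B scores were near equal. Scaffold894_A04 carried 5 D53 and 5 B peaks between 171406 and 178905, and each had a partner. Its D53 scores ran from 208 to 347 and its B scores from 153 to 402, with a median log2 ratio of 0.22. That was the highest median among the 34 scaffolds with at least 5 pairs, and it did not reach 0.32, the bound for a high pair. Scaffold2309_A09 had a median ratio of 0.04 over 8 pairs, with median scores of 106 for D53 and 135 for B. Scaffold3564_A13 had a median ratio of -0.15 over 8 pairs, with median scores of 93 and 91.5. Ranked by the lower of their scores, the 10 strongest pairs lay on 6 scaffolds, with log2 ratios of -0.21 to 0.40, a ranking that favours equal scores by construction.

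Strong pairs fell on either side. Of the 93 pairs with a geometric mean score of at least 100, 46 had a log2 ratio below -1.5, against 56.7% of such pairs in the whole series, and 33 had one above -0.5, against 33.8%. The remaining 14 lay between. The 46 were on 6 scaffolds, 40 of them on scaffold2434_A09 and scaffold1038_A05, and the 33 were on 15 scaffolds. None of the 29 scaffolds with a strong pair held strong pairs of both kinds. Most of them had only 1 strong pair, so for those the outcome was fixed. The bounds of -1.5 and -0.5 came from an earlier look at these data.

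By name, the median log2 ratio was -1.66 on A09 and -1.52 on A05 scaffolds, and between -0.68 and -0.52 for the other 11 names. Without scaffold2434_A09 and scaffold1038_A05 it was -0.72 on A09 scaffolds (66 pairs) and -0.58 on A05 scaffolds (49 pairs). The medians on the chromosomes of those names were -0.62 for A09 and -0.87 for A05. The same scaffolds set the median scores. On A09 scaffolds the median was 14 for D53 and 40 for B with them, and 8 and 16 without. On A05 scaffolds it was 13 and 22.5 with them, and 7 and 10 without.

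**Figure D5:**
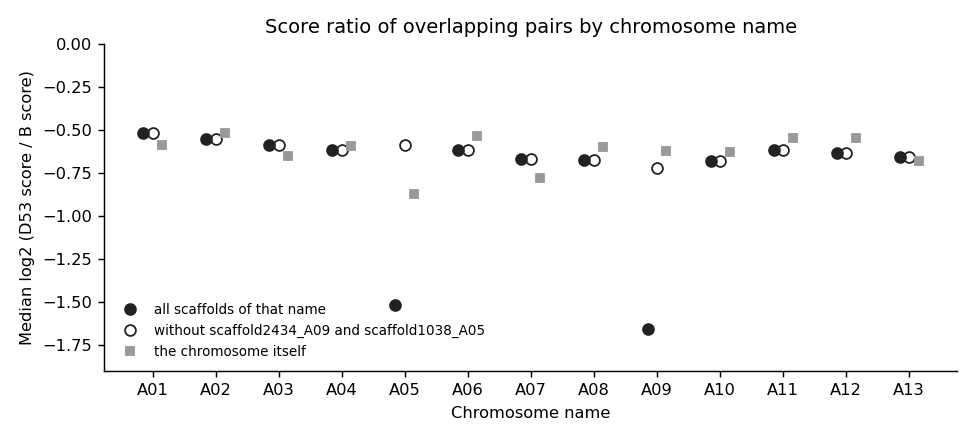
Median over overlapping pairs of log2 (D53 score over B score), on the vertical axis, for each chromosome name; filled circles are all scaffolds of that name, open circles leave out scaffold2434_A09 and scaffold1038_A05, and squares are the chromosome itself. The filled circles of A05 and A09 stand apart at -1.52 and -1.66, and the open circles lie between -0.72 and -0.52.

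Extreme ratios were sought among 938 one-to-one pairs with both scores at least 10. The lowest, on scaffold1038_A05, had a D53 score of 30 at 185775 to 186147 and a B score of 188. The next, on the same scaffold at 269591 to 269874, had a D53 score of 27 and a B score of 166. The third, on scaffold2434_A09 at 95786 to 96311, scored 15 in D53 and 91 in B. The highest, on scaffold415_A02 at 343295 to 343666, scored 25 in D53 and 17 in B, a log2 ratio of 0.56. On scaffold3564_A13 at 171331 to 171638 the scores were 147 and 101, and on scaffold3309_A12 at 236512 to 237502 they were 16 and 11. Scaffold1513_A06 held a pair with the same scores of 16 and 11, at 2255 to 2607 for D53.

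Peaks without a partner were weak in the main. The 1539 D53 peaks without a B partner had a median score of 6, and 11 scored at least 50. The 1596 B peaks without a D53 partner had a median of 9, and 38 scored at least 50. Over the whole lists, peaks without a partner had median scores of 5 for D53 and 9 for B. Among peaks scored at least 50, 92.9% of D53 and 90.2% of B peaks had a partner here, against 95.3% and 88.6% over the whole lists. Of the 1539 D53 peaks, 440 lay on a scaffold with no B peak and 207 had a B peak within 1 kb. Of the 1596 B peaks, 396 lay on a scaffold with no D53 peak and 271 had a D53 peak within 1 kb.

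The strongest D53 peak without a partner, at 65312 to 65584 on scaffold1545_A06, scored 158 and lay 19115 bp from the nearest B peak. The peak at 874101 to 874362 on scaffold3551_A13 scored 149, with a B peak 1818 bp away. Scaffold1777_A07 had a D53 peak of 131 at 17656 to 17960 and no B peak. Next were scores of 123 on scaffold3564_A13 and 97 on scaffold2309_A09, at 1050 and 1564 bp from a B peak. For B, scaffold126_A01 held scores of 114 at 11090 to 11315 and 108 at 14157 to 14346, at 8016 and 4985 bp from a D53 peak. Scaffold2434_A09 held scores of 110 and 105, at 299 and 437 bp from a D53 peak. The last of these 5 B peaks, on scaffold3564_A13, scored 96. A missing partner means only that the other list has no call at that place, and with 1 library each a difference at such a site could not be tested.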

How the data were processed

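Peaks of 1 D53 and 1 B IP from cotton leaves were used, each called against its own input and unpooled, per the peak names in the deposited lists. The value of each peak is a score deposited by the authors, a whole number without a stated definition. Aligner, caller, threshold and genome build are not given in the sources used here, and depth is unknown. Unequal depth or thresholds would move the scores, the number of peaks and their overlap. The deposited intervals were read as BED, and starts are printed from 1. Overlap needed 1 bp in common. It was tested on simulated lists and gave the same numbers as bedtools 2.31.1. Shares carry 95% Wilson intervals. No test was run, with 1 library per group. Named were the 10 scaffolds with most D53 peaks, the 10 highest peaks of each list, the highest peak of each list per chromosome name, the 10 pairs whose lower score was highest, the 5 highest peaks without a partner per list, and the 3 lowest and 3 highest ratios. Other scaffolds were named after their values were seen, and not every highest peak per name is printed. Members, lists and bounds were chosen with earlier results of these data known. The gene table at hand, of assembly Gossypium_hirsutum_v2.1, holds none of these scaffold names, so genes, features and sequences are not reported. Alternatives covered the overlap rule, score minimums, merging and the scaffolds used. The tools were matplotlib 3.10.9, SciPy 1.17.1, pandas 2.3.3 and NumPy 2.4.6, under Python 3.11.15.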

Additional observations from a re-analysis of the deposited data

How the results depend on the processing

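Of 52 recomputed values, 34 stayed within the interval of the reported value or, for counts, within 1.5 times of it. The overlapping share of D53 peaks, reported as 44.9%, was 37.5% with at least 50% of both peaks covered, 40.6% with midpoints at most 200 bp apart, 78.1% with scores of at least 10 and 71.0% with scores above the median of each whole list. It was 41.9% without the 10 scaffolds with most D53 peaks and 42.1% without the 2 with most. That of B peaks, reported as 44.2%, was 36.6%, 39.6%, 51.5%, 64.9%, 41.4% and 41.8% under the same settings in that order. The rule on 50% coverage could not raise the shares, since it keeps only part of the pairs. Leaving out the 2 scaffolds could only lower the shares, since 97.8% of their D53 and 82.6% of their B peaks overlapped. For the other settings the cause was not tested. Pairs with a log2 ratio at least 1 below the median of all pairs, 10.9% as reported, made up 7.02% without scaffold2434_A09, 2.79% without the 10 scaffolds and 2.72% without the 2, and the median ratio, -0.68 as reported, was -0.63 without the 10 and without the 2. A score of at least 10 kept 1258 of 2792 D53 peaks. Median scores and widths stayed within their intervals in each setting run. The setting without the 2 scaffolds was chosen after seeing the data. With 1 library per group, no replicate could be left out. No paired analysis was possible because the deposited lists come from single libraries. Unknown depth limits every statement on a peak missing from one list.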

Other observations

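Scaffold2433_A09 and scaffold2434_A09, which carry consecutive numbers, both had low ratios of D53 to B score, with medians of -2.08 over 9 pairs and -1.94 over 69 pairs. The pairs of scaffold2435_A09 had ratios of -2.16, -1.32, -1.51 and -1.39. By contrast, scaffold1039_A05, next in number to scaffold1038_A05, had 1 pair with a ratio of -0.32. The lists do not say whether consecutive numbers mean neighbouring sequence. Of all peaks on A-anchored scaffolds, 258 D53 peaks (9.24%) and 278 B peaks (9.72%) began within the first 1 kb of their scaffold. The number of D53 and of B peaks per scaffold ranked loosely alike over the 1583 scaffolds, with a Spearman rho of 0.39, a description over scaffolds that share libraries and differ in length.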
